A study of Mus musculus with 4 samples.

Results

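A set of 10 genes was followed here in the single-cell RNA of the E14.5 mouse ventricle: 5 heat shock genes (*Hspa1a*, *Hspa1b*, *Hsph1*, *Dnajb1* and *Hspa8*) and 5 immediate early genes (*Fos*, *Fosb*, *Jun*, *Junb* and *Egr1*). They are 10 of the 32285 genes in the count matrices, and they were taken by symbol as families chosen by the measured fall of some of them between control and *Ets1* eKO in these libraries. Their own change in *Ets1* eKO is therefore given as a description, without a p-value. The question was whether the lower levels were shared by all cell types of the ventricle. The control libraries carried Tie2Cre;*Ets1* fl/+ and the *Ets1* eKO libraries Tie2Cre;*Ets1* fl/fl, on a C57BL/6 background, with 2 libraries in each group and 3 pooled ventricles of untyped sex in each library. Both groups carry the Cre and at least 1 floxed allele, and no library lacked either. Tie2Cre is active in the endothelial and blood lineages, and cells that descend from endocardium also carry the recombined allele. The labels name no batch that differs between the libraries and no date of dissociation, and p-values measure the spread between 2 pools per group.

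Heat shock genes encode chaperones, which bind unfolded proteins. *Hspa1a* and *Hspa1b* are neighbouring copies of the inducible Hsp70 and are low in unstressed cells, while *Hspa8* is the constitutive member of the same family. *Hsph1* (Hsp110) exchanges nucleotide on Hsp70, and *Dnajb1* (Hsp40) delivers clients to it. Immediate early genes are transcribed within minutes of growth factor, mechanical or stress signals, without new protein synthesis. *Fos*, *Fosb*, *Jun* and *Junb* encode subunits of the AP-1 transcription factor and *Egr1* a zinc finger transcription factor. Both groups are known to respond to warm enzymatic dissociation of tissue, and the ventricles were digested with trypsin before capture.

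Cells were put into 7 classes by marker genes, and none of the 10 genes is among these markers. The filters kept 38733 of 45551 barcodes, and 34615 cells fell into the cardiomyocyte-like, coronary endothelial (cvEC-like), mural endocardial (mEndo-like), valve endocardial (vEndo-like), fibroblast-like, epicardial-like and immune-like classes. The smallest classes had 92 to 298 (immune-like), 118 to 260 (epicardial-like) and 151 to 200 cells per library (vEndo-like). The cut that set the vEndo-like class apart was not sharp, with 957 cells within 0.05 of it and 696 above it, nor was that of the cvEC-like class, with 1005 and 1682. The vEndo-like class had a higher median score for mEndo markers (0.459) than for vEndo markers (0.308). In mEndo-like cells the median score for vEndo markers was 0.115. Median depth was 10106 and 9400 UMIs per cell in controls 1 and 2 and 9557 and 6145 in *Ets1* eKO 1 and 2. Pairs of libraries shared 19 to 47 barcodes, at most 0.44% of the smaller library. The targeted gene was lower in the endothelial classes. *Ets1* measured 276 and 257 CPM (counts per 1000000 UMIs of the class) in control mEndo-like cells and 118 and 93.8 in *Ets1* eKO, a log2 change of -1.27 ± 0.14 (SE, adjusted p = 0.000923, edgeR). The log2 change was -1.10 in cvEC-like (adjusted p = 0.0169, edgeR) and -1.43 in vEndo-like cells (adjusted p = 0.00192, edgeR). It did not pass the test in the other 4 classes (-0.52 to 0.53). Fibroblast-like cells also held *Ets1*, at 94.4 and 82.1 CPM in controls and 58.6 and 56.8 in *Ets1* eKO (-0.52 ± 0.12, adjusted p = 0.206, edgeR).

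Positions are on GRCm38 from GENCODE vM21. *Hspa1a* lies at chr17:34969190-34972156 and *Hspa1b* at chr17:34956436-34959238, both on the minus strand, both of a single exon, with 9951 bases between them. Their annotated transcripts were identical at 83.8% of aligned positions over the whole length and at 45.2% over the last 300 bases. How reads that match both were split is not given in the sources used here, so the levels of either copy alone are uncertain and their sum is given as well. *Hsph1* lies at chr5:149614287-149636376, *Dnajb1* at chr8:83608193-83612653, *Hspa8* at chr9:40800984-40810087, *Fos* at chr12:85473890-85477273, *Fosb* at chr7:19302696-19310051, *Jun* at chr4:95049034-95052222 and *Junb* at chr8:84974484-84978718. The position of *Egr1* is not given here. On the opposite strand *Hspa1a* overlaps *Gm20481*, *Jun* overlaps *Junos* and *Junb* overlaps *Prdx2*. Whether strand was used in counting is not given in the sources used here.

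The 250 bases upstream of the start are shown for 4 members whose levels moved apart in the comparisons that follow. They are the Hsp70 pair, *Fos*, and *Jun*, an immediate early gene with a heat shock motif. The sequences are from RefSeq on GRCm38.p6, 5′ to 3′ on the gene's strand. Capitals mark a pair of inverted heat shock units (GAANNTTC or TTCNNGAA) in *Hspa1a*, *Hspa1b* and *Jun*, and the core of the cAMP response element (TGACG or its reverse complement) in *Fos*.
Hspa1a: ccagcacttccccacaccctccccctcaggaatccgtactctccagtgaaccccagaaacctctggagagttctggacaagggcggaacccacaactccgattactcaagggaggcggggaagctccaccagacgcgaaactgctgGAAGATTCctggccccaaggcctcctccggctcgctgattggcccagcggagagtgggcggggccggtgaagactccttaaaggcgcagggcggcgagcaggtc
Hspa1b: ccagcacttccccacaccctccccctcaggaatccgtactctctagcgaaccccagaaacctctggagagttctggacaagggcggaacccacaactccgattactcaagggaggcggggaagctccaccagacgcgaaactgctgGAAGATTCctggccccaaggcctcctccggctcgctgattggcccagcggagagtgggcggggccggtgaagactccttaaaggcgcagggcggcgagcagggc
Fos: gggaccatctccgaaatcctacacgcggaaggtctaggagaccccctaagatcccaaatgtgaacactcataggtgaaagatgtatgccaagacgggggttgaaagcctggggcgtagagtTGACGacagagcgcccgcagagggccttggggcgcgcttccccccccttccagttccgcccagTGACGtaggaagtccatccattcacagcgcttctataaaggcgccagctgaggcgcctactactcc
Jun: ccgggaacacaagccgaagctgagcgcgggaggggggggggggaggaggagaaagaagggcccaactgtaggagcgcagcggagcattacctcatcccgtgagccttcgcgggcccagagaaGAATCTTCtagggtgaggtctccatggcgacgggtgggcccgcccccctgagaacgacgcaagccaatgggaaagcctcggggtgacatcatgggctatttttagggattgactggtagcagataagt
The Hsp70 windows are chr17:34972157-34972406 (*Hspa1a*) and chr17:34959239-34959488 (*Hspa1b*), both on the minus strand, and they differ at 3 of 250 positions. The *Fos* window is chr12:85473640-85473889 on the plus strand and the *Jun* window chr4:95052223-95052472 on the minus strand. Of the 10 genes, 8 have a window in the table. The inverted heat shock pair occurred in 4 of these (*Hspa1a*, *Hspa1b*, *Hsph1* and *Jun*) and in 12.8% of all 32851 promoter windows of this length. It lies 104 to 97 bases before the start in both Hsp70 copies and 128 to 121 bases before it in *Jun*. The TGACG core occurred in 4 (*Dnajb1*, *Fos*, *Fosb* and *Junb*), against 17.8% of all windows, and CCAAT or its reverse complement in 6, against 33.8%. An ETS core (CCGGAA or its reverse complement) occurred in none of the 8 and in 12.0% of all windows. The AP-1 site TGANTCA (6.75% of all windows), the full TGACGTCA site (1.55%) and the CArG box (1.47%) also occurred in none. Counted by gene, the shares of all 27025 genes were 14.5% for the inverted heat shock pair and 19.8% for TGACG. They were 37.5% for CCAAT, 13.6% for the ETS core, 7.82% for the AP-1 site, 1.77% for TGACGTCA and 1.62% for the CArG box. All of these are matches of letters in short windows and were not tested as binding sites.

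The levels of the members by class do not rest on the comparison that chose them. Each class was set against cardiomyocyte-like cells of the same libraries, with library as a term (edgeR). Immediate early genes were highest in immune-like cells in all 4 libraries and lowest in cardiomyocyte-like cells in all 4, except that *Egr1* in *Ets1* eKO 2 was lowest in mEndo-like cells. *Fos* measured 60.3 to 112 CPM in cardiomyocyte-like cells, 100.4 to 337 in mEndo-like, 179 to 270.1 in cvEC-like, 345 to 833 in vEndo-like, 621 to 936 in epicardial-like, 774 to 1381 in fibroblast-like and 1771 to 2588 in immune-like cells. Fibroblast-like cells came second in every library. Mural endocardium lay above coronary endothelium in both controls and below it in both *Ets1* eKO libraries. On the log2 scale *Fos* was 4.55 ± 0.18 higher in immune-like (adjusted p = 4.33e-19, edgeR) and 3.14 ± 0.17 higher in fibroblast-like than in cardiomyocyte-like cells (adjusted p = 3.59e-16, edgeR), each in 4 of 4 libraries.

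The other AP-1 genes and *Egr1* followed this order with exceptions. *Fosb* was 4.85 ± 0.19 higher on the log2 scale in immune-like, 3.68 ± 0.17 in fibroblast-like and 3.34 ± 0.20 in vEndo-like than in cardiomyocyte-like cells. *Jun* was second highest in vEndo-like cells in all 4 libraries, at 2.53 ± 0.10 above cardiomyocyte-like cells. *Junb* stood 2.76 ± 0.12 above cardiomyocyte-like cells in cvEC-like cells and 1.58 ± 0.12 in mEndo-like cells, and it was higher in coronary than in mural endocardial cells in each of the 4 libraries. With trimmed-mean scaling *Egr1* did not differ detectably between mEndo-like and cardiomyocyte-like cells (log2 difference 0.00 ± 0.13, adjusted p = 0.992, edgeR). By CPM it was higher in mEndo-like cells in 3 of 4 libraries. It measured 229 and 188 against 158 and 134 CPM in controls 1 and 2, and 125 and 103 against 87.0 and 107 CPM in *Ets1* eKO 1 and 2. In all, 5 of 5 immediate early genes were higher in each class than in cardiomyocyte-like cells, except 4 of 5 in mEndo-like cells. The share of all 14577 genes called in either direction in the same fits was 73.6% in cvEC-like, 76.9% in mEndo-like, 66.9% in vEndo-like, 77.3% in fibroblast-like, 65.6% in epicardial-like and 69.3% in immune-like cells, so that a call is common. The median log2 difference of the 5 genes was 1.03, 1.28, 2.23, 2.70, 1.63 and 4.39 in these classes, against medians of -0.24 to 0.04 over all genes tested. Fibroblast markers in cardiomyocyte-like cells, a reading of free RNA, were at 0.894% to 1.94% of their fibroblast-like level. The immediate early genes in cardiomyocyte-like cells were at 3.63% to 23.7% of theirs.

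Heat shock genes had another order. *Hspa1a* and *Hspa1b* were higher in endocardium than in cardiomyocytes, by 1.90 ± 0.31 and 2.57 ± 0.31 on the log2 scale in mEndo-like cells (adjusted p = 3.45e-06 and 1.3e-08, edgeR), in 4 of 4 libraries. In vEndo-like cells the same differences were 2.05 ± 0.44 and 2.49 ± 0.43 (1.80 and 1.87 in the controls alone). In cvEC-like cells, also endothelial, the differences from cardiomyocyte-like cells were -0.94 ± 0.54 and -0.72 ± 0.56 and did not pass the test (adjusted p = 0.123 and 0.25, edgeR), while in the controls alone they were -1.19 and -1.41 and passed it (adjusted p = 0.0237 and 0.00393, edgeR). *Hspa1a* was 3.33 ± 0.42 higher in immune-like cells, 2.35 in the controls alone and 2.64 to 4.01 with libraries left out. *Hsph1* was highest in mEndo-like cells in all 4 libraries, 1.08 ± 0.08 above cardiomyocyte-like cells (adjusted p = 2.76e-13, edgeR), while *Dnajb1* had its highest CPM in epicardial-like cells in all 4. With trimmed-mean scaling *Dnajb1* was 0.93 ± 0.09 above cardiomyocyte-like cells in epicardial-like and 1.03 ± 0.10 in immune-like cells, so the order of these classes depends on the scaling. *Hspa8* varied least, with 711 to 1567 CPM over all classes and libraries, and was highest in immune-like cells in all 4. Its difference between mEndo-like and cardiomyocyte-like cells was -0.31 on the log2 scale with trimmed-mean scaling and 0.06 with total count scaling, so no direction is given for it.

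In *Ets1* eKO the log2 change of the immediate early genes was below 0 in all 35 combinations of 5 genes and 7 classes. Both *Ets1* eKO libraries lay below both controls in 30 of these, the groups overlapped in 5, and none showed the reverse. This separation is common in these libraries: 36.8% of all genes tested lay below both controls in cardiomyocyte-like, 31.3% in cvEC-like, 33.1% in mEndo-like, 23.9% in vEndo-like, 33.6% in fibroblast-like, 25.2% in epicardial-like and 18.0% in immune-like cells. The 5 combinations that overlapped were *Fos* in epicardial-like and immune-like cells, *Jun* in vEndo-like, *Junb* in epicardial-like and *Egr1* in cvEC-like cells. In a sum over cells, fewer cells with the RNA and less RNA per cell cannot be told apart.

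**Figure D1:**
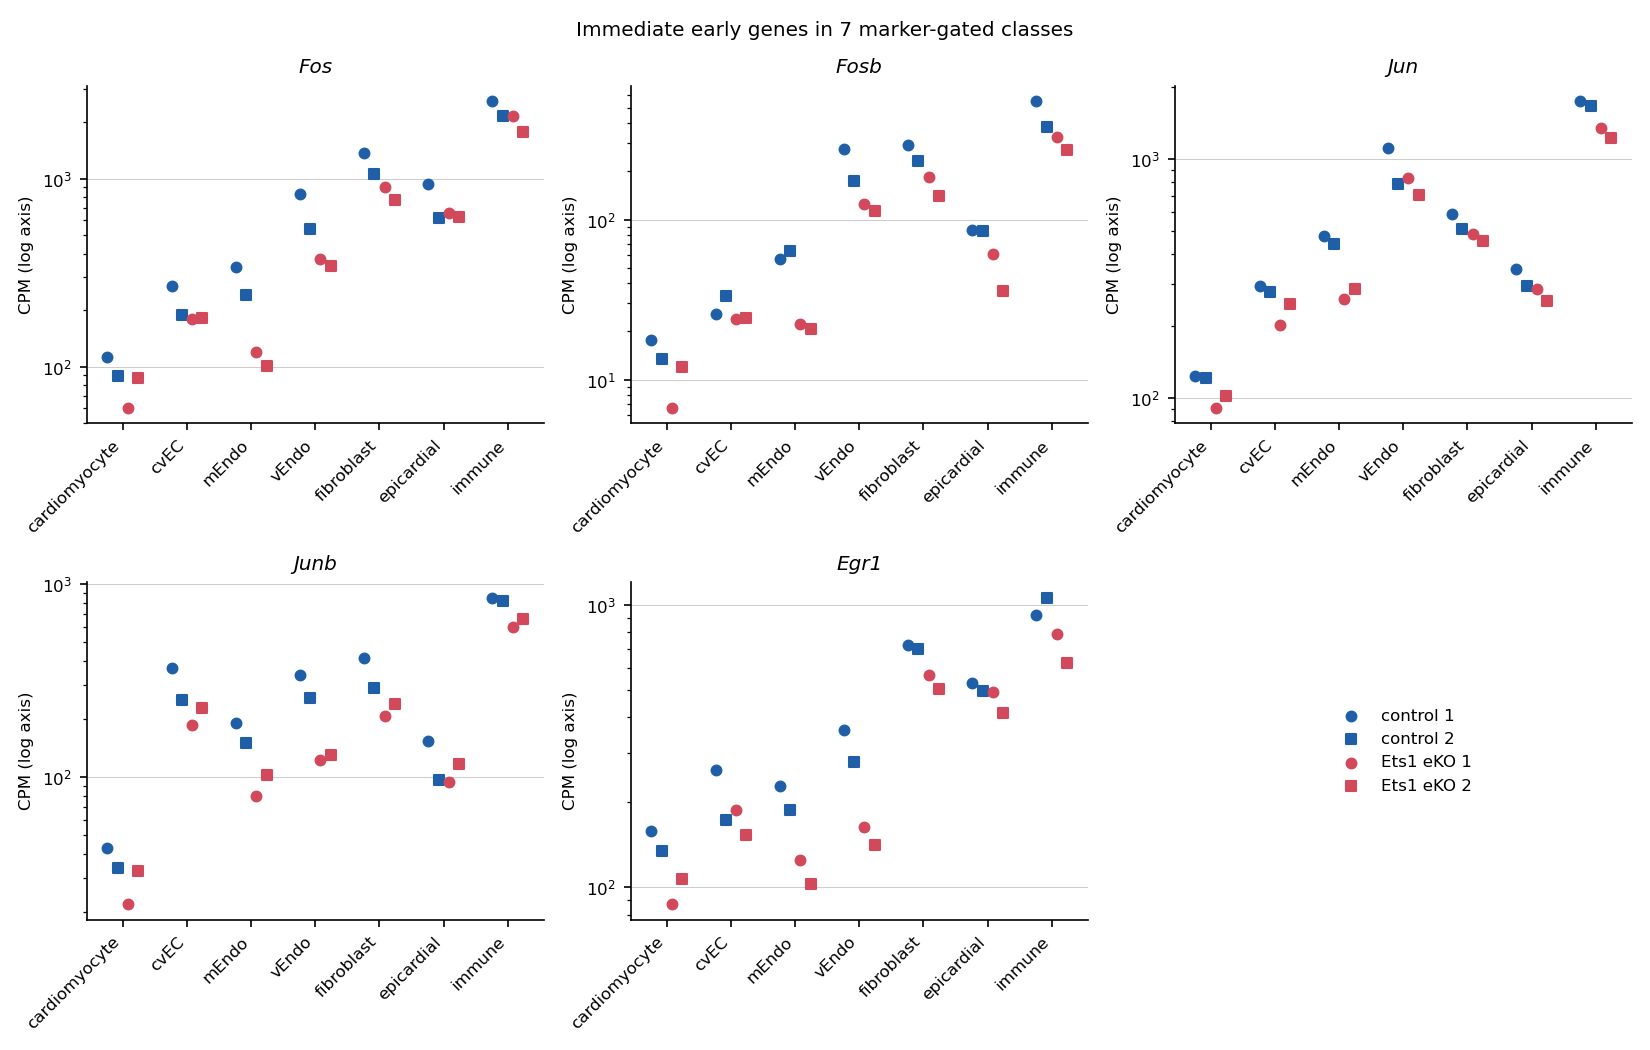
CPM (log axis) of the 5 immediate early genes in 7 marker-gated classes, with 1 point for each library (blue, controls; red, *Ets1* eKO; circles, replicate 1; squares, replicate 2). Both red points lie below both blue points in 30 of 35 sets, among them all 5 genes in mEndo-like cells.

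The size of the difference varied between classes. In mEndo-like cells *Fos* measured 337 and 239 CPM in controls and 119 and 100.4 in *Ets1* eKO, a log2 change of -1.33 ± 0.17. *Fosb* measured 57.0 and 64.1 against 22.4 and 20.8 CPM, a log2 change of -1.43 ± 0.15. *Jun* went from 475 and 440 to 259 and 285 CPM (-0.69 ± 0.13), *Junb* from 191 and 150 to 80.5 and 103 CPM (-0.83 ± 0.16) and *Egr1* from 229 and 188 to 125 and 103 CPM (-0.82 ± 0.14). All 5 therefore had separate groups in mural endocardium. In vEndo-like cells *Junb* measured 339 and 258 CPM in controls and 123 and 130.2 in *Ets1* eKO (-1.21 ± 0.17), and *Egr1* measured 360 and 277 against 164 and 141 CPM (-1.02 ± 0.17). *Fos* measured 833 and 538 against 372 and 345 CPM (-0.90 ± 0.20). Control 1 was the highest library for all 5 genes in this class.

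Coronary endothelium, where *Ets1* was also lower, showed smaller differences, though the difference from endocardium was not tested. *Fos* in cvEC-like cells measured 270.1 and 187 CPM in controls and 179 and 182 in *Ets1* eKO (-0.26 ± 0.18), so that control 2 and both *Ets1* eKO libraries nearly coincide. *Junb* had the largest difference there, with 368 and 251 against 186 and 229 CPM (-0.49 ± 0.20, and -0.74 to -0.19 with libraries left out). Without control 1 the log2 change in cvEC-like cells was 0.04 for *Fos* and 0.06 for *Egr1*. Outside this class the sign also turned for *Fos* and *Junb* in epicardial-like and *Jun* in fibroblast-like cells without control 1, and for *Egr1* in epicardial-like cells without *Ets1* eKO 2.

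The classes outside the endothelium also had log2 changes below 0, though no immediate early gene passed the test in any of them. The groups overlapped there for *Fos* in epicardial-like and immune-like cells and for *Junb* in epicardial-like cells. In cardiomyocyte-like cells *Egr1* measured 158 and 134 CPM in controls and 87.0 and 107 in *Ets1* eKO (-0.48 ± 0.16), and *Jun* measured 123 and 121 against 90.8 and 102 CPM (-0.23 ± 0.13). In fibroblast-like cells *Fos* measured 1381 and 1063 against 904 and 774 CPM (-0.45 ± 0.19), and *Fosb* 291 and 231 against 184 and 139.8 CPM (-0.60 ± 0.18). In immune-like cells *Jun* measured 1738 and 1662 against 1344 and 1225 CPM (-0.38 ± 0.18). In epicardial-like cells *Fosb* measured 85.7 and 85.4 against 60.7 and 36.0 CPM (-0.71 ± 0.23), while *Egr1* (531 and 495 against 491 and 414 CPM) was barely separate. With libraries left out the log2 change of *Fosb* in that class ran from -1.18 to -0.41.

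Summed over the 5 genes, *Ets1* eKO held 51.4% of the control level in mEndo-like, 61.5% in vEndo-like, 72.0% in cardiomyocyte-like, 72.1% in fibroblast-like, 75.4% in cvEC-like, 76.9% in immune-like and 83.4% in epicardial-like cells, with both *Ets1* eKO libraries below both controls in all 7 classes, though control 2 and *Ets1* eKO 1 both stood at 1591 CPM, as rounded, in epicardial-like cells. The median log2 change of the 5 genes was -0.83 in mEndo-like and -0.90 in vEndo-like cells and -0.45 to -0.20 in the other classes, beside medians of 0.00 to 0.01 over all genes tested. It stayed below 0 in every class with each library left out, but without control 1 it was -0.57 in vEndo-like and -0.04 in epicardial-like cells. In cardiomyocyte-like cells it moved from -0.38 to -0.12 without *Ets1* eKO 1, -0.19 without control 1, -0.56 without control 2 and -0.66 without *Ets1* eKO 2. By edgeR at an adjusted p of 0.05, 5 of 5 were called lower in mEndo-like cells, where 1.59% of all genes were, and 2 of 5 (*Junb* and *Egr1*) in vEndo-like cells, where 0.148% were. None was called in the other classes, where the share of genes called lower was 0% (cardiomyocyte-like), 0.3% (cvEC-like), 0.0136% (fibroblast-like), 0.05% (epicardial-like) and 0.0112% (immune-like). In cardiomyocyte-like cells edgeR called 0 genes, with 1673 at an unadjusted p under 0.05, against 33 by DESeq2. These calls use the comparison that chose the genes and are not evidence for it, and the difference in size between classes was not tested.

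**Figure D2:**
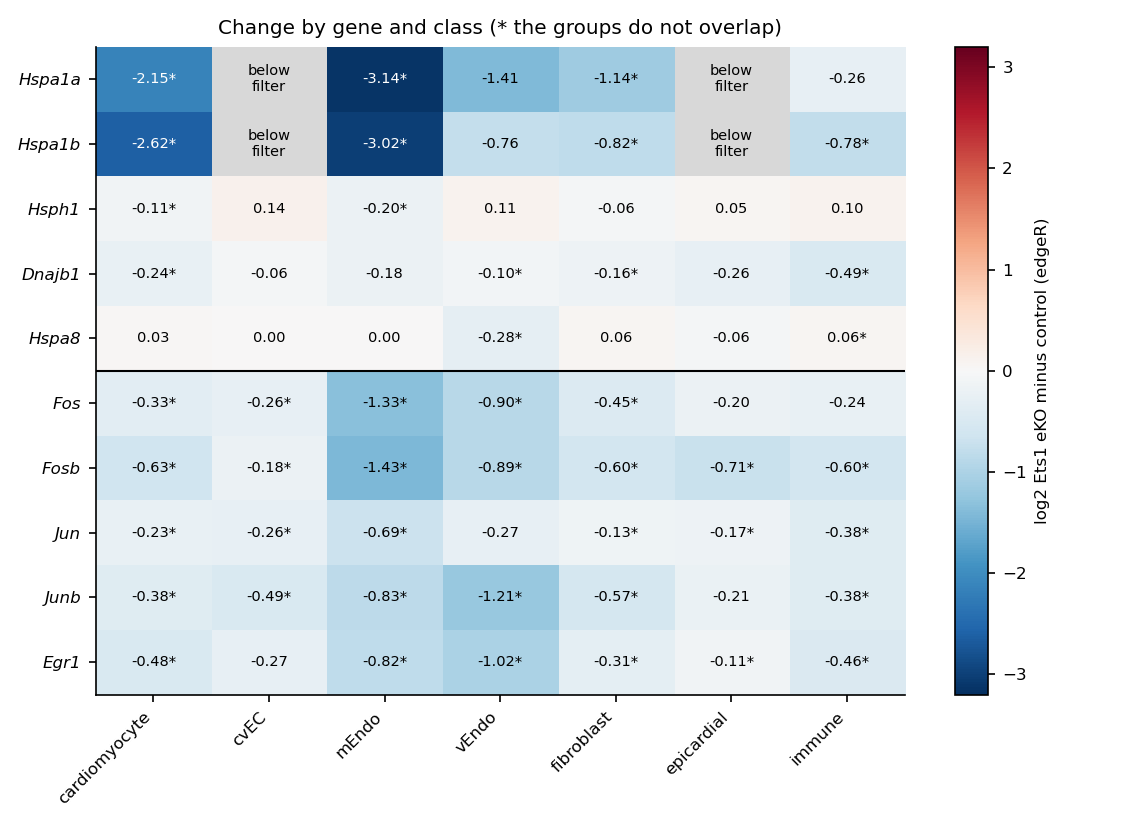
Log2 change, *Ets1* eKO minus control (edgeR), of each gene (rows) in each class (columns), where blue is lower in *Ets1* eKO, an asterisk marks groups that do not overlap and grey cells did not pass the filter on low counts. All immediate early values are below 0, and the largest falls are those of *Hspa1a* and *Hspa1b* in mEndo-like (-3.14 and -3.02) and cardiomyocyte-like cells (-2.15 and -2.62).

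The heat shock genes split in their behaviour. The inducible pair was far lower in mEndo-like and cardiomyocyte-like cells and less so or overlapping in the other classes, and the other 3 genes differed little. In mEndo-like cells *Hspa1a* measured 53.9 and 17.6 CPM in controls and 3.27 and 4.53 in *Ets1* eKO (log2 change -3.14 ± 0.47), and *Hspa1b* measured 56.9 and 28.6 against 5.25 and 4.90 CPM (-3.02 ± 0.31). The groups were far apart, but so were the controls, by more than 2-fold for *Hspa1a*. Without control 1 the log2 changes were -2.13 and -2.46, and without control 2 -3.69 and -3.40. In cardiomyocyte-like cells *Hspa1a* measured 8.43 and 3.80 against 1.28 and 1.31 CPM (-2.15 ± 0.39) and *Hspa1b* 7.14 and 3.23 against 0.747 and 0.836 CPM (-2.62 ± 0.41). Without control 1 these were -1.42 and -1.89, and without control 2 -2.61 and -3.08. In fibroblast-like cells the controls lay close together, at 11.5 and 9.91 CPM for *Hspa1a*, with 3.83 and 5.41 in *Ets1* eKO (-1.14 ± 0.23).

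The pair did not behave alike in every class. In vEndo-like cells *Hspa1a* measured 46.1 and 11.2 CPM in controls and 12.1 and 8.62 in *Ets1* eKO, so the groups overlapped, and the log2 change of -1.41 became -0.08 without control 1. In immune-like cells *Hspa1a* measured 32.8 and 40.8 against 17.3 and 42.0 CPM, again with overlap. There *Hspa1b* measured 15.9 and 18.8 against 5.51 and 14.0 CPM, without overlap (-0.78 ± 0.49, and -1.59 to -0.24 with libraries left out). In cvEC-like and epicardial-like cells both genes fell under the filter on low counts. Summed as a pair, they held 11.4% of the control level in mEndo-like, 18.5% in cardiomyocyte-like, 45.5% in vEndo-like, 46.0% in cvEC-like, 46.8% in fibroblast-like and 72.8% in immune-like cells. In epicardial-like cells the pair was at 123% of control, from 9.89 and 5.02 CPM in controls and 7.11 and 11.2 in *Ets1* eKO, and the groups overlapped there, in vEndo-like and in immune-like cells.

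**Figure D3:**
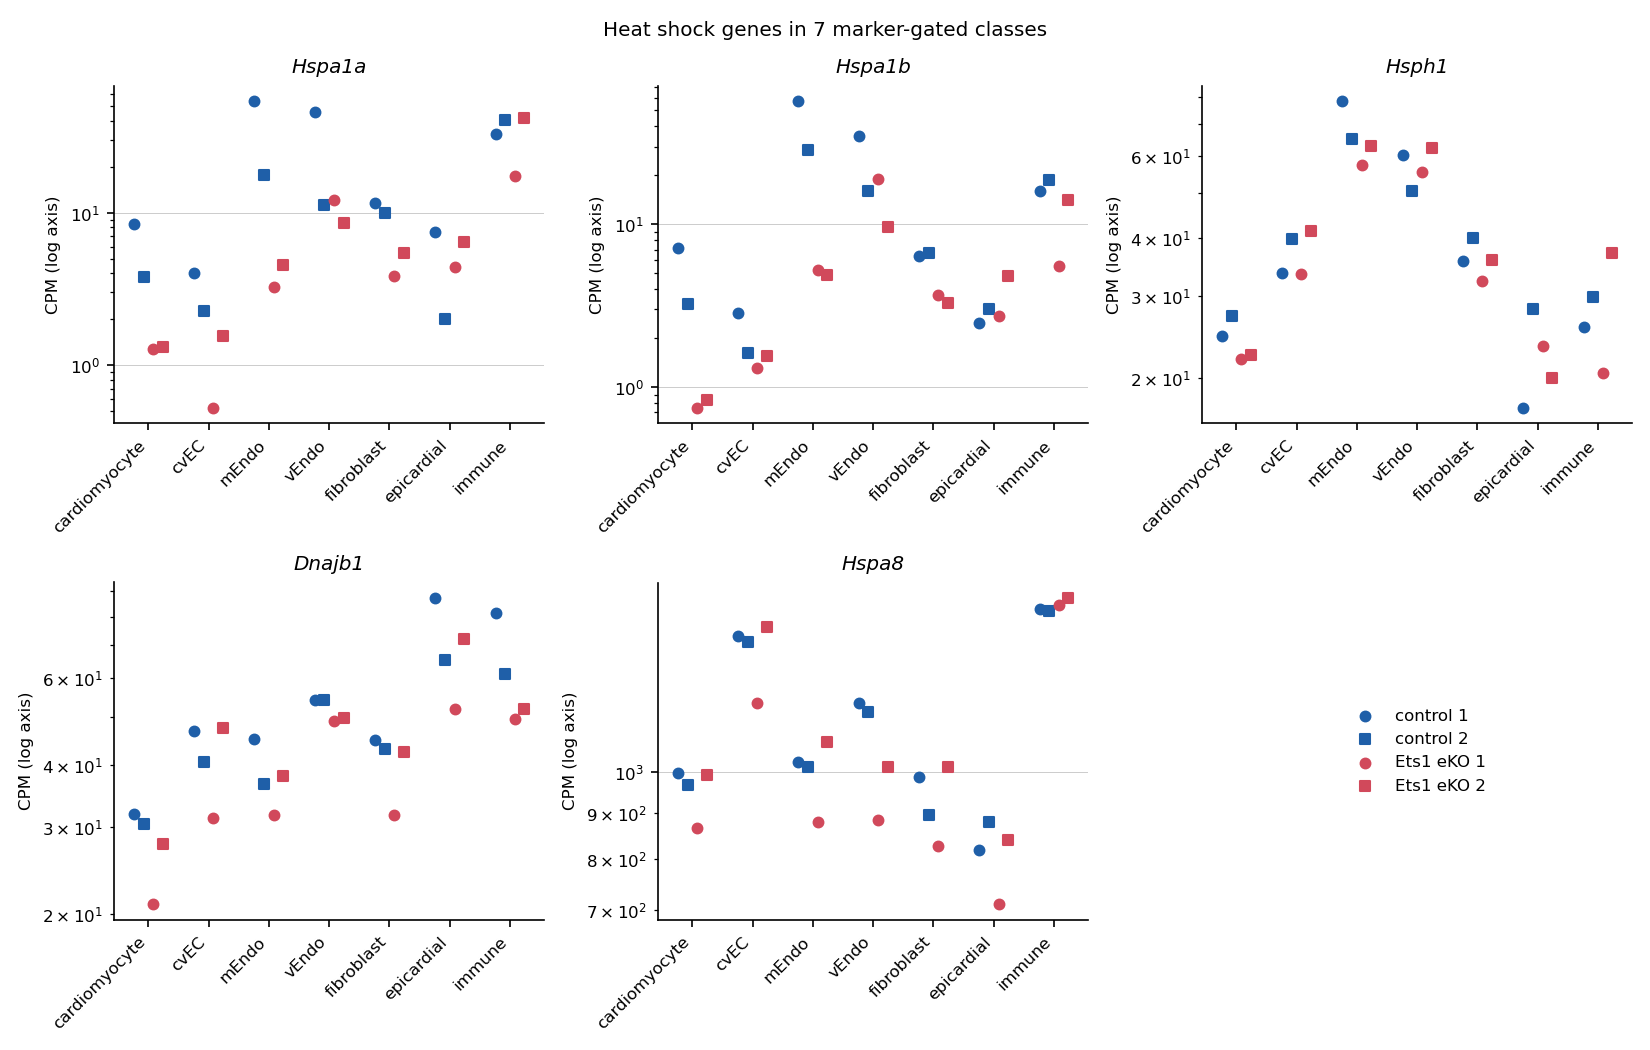
CPM (log axis) of the 5 heat shock genes in 7 marker-gated classes, with 1 point for each library and the same colours and symbols for groups and replicates. *Hspa1a* and *Hspa1b* in mEndo-like cells range from 3.27 to 56.9 CPM with all *Ets1* eKO points at the bottom, while the 4 libraries of *Hspa8* lie close together in each class.

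*Hsph1* measured 78.4 and 65.2 CPM in control mEndo-like cells and 57.4 and 63.0 in *Ets1* eKO (-0.20 ± 0.14), and over all classes its log2 change ran from -0.20 to 0.14. *Dnajb1* was below 0 in all 7 classes, from -0.49 to -0.06, and its largest difference was in immune-like cells, with 81.5 and 61.2 against 49.6 and 51.9 CPM (-0.49 ± 0.24). *Hspa8* measured 1025 and 1014 against 879 and 1079.7 CPM in mEndo-like cells (0.00 ± 0.16) and ran from -0.28 to 0.06. Over the 5 heat shock genes, both *Ets1* eKO libraries lay below both controls in 16 of 35 combinations, above in 1 (*Hspa8* in immune-like cells), and overlapped in 18. Without the Hsp70 pair it was 7 of 21, beside 18.0% to 36.8% of all genes by class. *Ets1* eKO 1 was the lowest library in 26 of the 35. Of the heat shock genes edgeR called *Hspa1a* and *Hspa1b* lower in mEndo-like cells, where 1.59% of all genes were, and none in the other classes, and these calls too come from the comparison that chose the genes. The median log2 change was -0.28 to 0.05 by class, and without *Ets1* eKO 2 it was -0.43 in cvEC-like and -0.48 in cardiomyocyte-like cells.

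Other measures of the libraries also differed between the groups. The median share of mitochondrial counts per cell was lower in both *Ets1* eKO libraries in all 7 classes, for example 5.71% and 5.73% in controls against 4.56% and 4.48% in cardiomyocyte-like cells and 3.77% and 3.93% against 2.91% and 2.90% in mEndo-like cells. Control 1 was the highest library in 32 of 35 immediate early combinations, *Ets1* eKO 2 was the lowest in 19 and *Ets1* eKO 1 in 15. In mEndo-like cells the summed level of 8 mEndo markers was 4977 and 4858 CPM in controls and 4060.2 and 3793 in *Ets1* eKO, and that of 8 cvEC markers was 6093 and 5212 against 6226 and 7161 CPM, with no marker of either list at 0. Fibroblast markers, 10 in number, were higher in *Ets1* eKO mEndo-like cells (656 and 627 against 914 and 855 CPM), as were 8 pericyte and smooth muscle markers (57.4 and 51.7 against 84.6 and 76.7 CPM) and 10 epicardial markers (9.32 and 12.5 against 16.8 and 19.0 CPM). The median ribosomal share per cell was higher in both *Ets1* eKO libraries in 5 classes, for example 12.7% and 12.6% against 14.7% and 13.8% in cardiomyocyte-like cells, and did not separate the groups in mEndo-like or vEndo-like cells. Cardiomyocyte markers, 10 in number, were at 632 to 1348 CPM in mEndo-like cells and 578 to 1300.3 in vEndo-like cells, lowest in control 2 in both. The part of these measures in the result was not tested. Handling of each pool before capture and genotype cannot be told apart in this design, because each pool has 1 genotype and 1 dissociation.

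**Figure D4:**
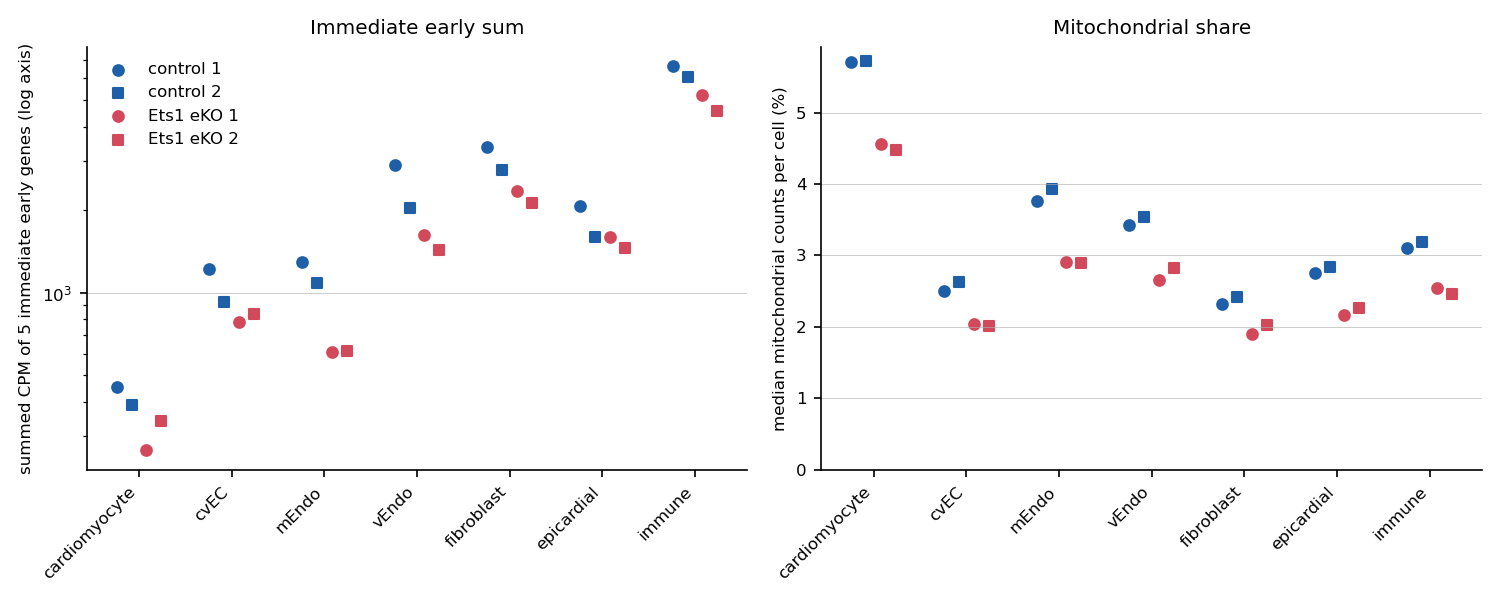
Left, summed CPM of *Fos*, *Fosb*, *Jun*, *Junb* and *Egr1* (log axis) by class, and right, the median percentage of mitochondrial counts per cell, with 1 point for each library (blue, controls; red, *Ets1* eKO; circles, replicate 1; squares, replicate 2). Both quantities are lower in both *Ets1* eKO libraries in all 7 classes.

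To compare cells at equal depth, each cell was thinned to 2000 UMIs and cells with a UMI were counted, with exact (Clopper-Pearson) 95% intervals that cover counting error only. In mEndo-like cells the mean was then 0.183 to 0.634 UMIs of *Fos* per cell, so that the share with a UMI also falls with the amount per cell. *Fos* was found in 30.5% (27.6% to 33.6%) and 25.9% (22.7% to 29.4%) of control mEndo-like cells and in 15.0% (12.6% to 17.6%) and 12.8% (11.1% to 14.6%) of *Ets1* eKO cells. Before thinning these shares were 53.4%, 51.0%, 32.4% and 24.6%. *Hspa1a* was found in 7.82% (6.19% to 9.72%) and 2.61% (1.55% to 4.09%) of control mEndo-like cells and in 0.713% (0.262% to 1.55%) and 0.814% (0.421% to 1.42%) of *Ets1* eKO cells, before thinning in 15.1%, 6.27%, 1.52% and 1.81%. Thinning left out 29, 12, 16 and 68 mEndo-like cells. In fibroblast-like cells, where most cells hold *Fos*, the shares were 76.0%, 69.4%, 63.1% and 59.6%. In cardiomyocyte-like cells they were 16.1% and 12.8% against 9.77% and 13.6%, so that *Ets1* eKO 2 lay between the controls by this measure. No class is known to lack these genes, so no share of background cells could be set beside them.

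Immediate early genes occurred together in the same mEndo-like cells, as did the Hsp70 pair, while *Hspa1a* and *Fos* differed between classes and libraries. The values come from 7 gene pairs, each with its own random thinning to 2000 UMIs, so that the number of cells with a gene varies between pairs. Among control mEndo-like cells, *Jun* was found in 60.2% and 59.3% of cells with *Fos* and in 35.9% and 40.3% of cells without it. In *Ets1* eKO the shares were 49.6% and 53.1% with *Fos* and 29.6% and 30.8% without. *Hspa1b* was found in 39.7% and 40.0% of control mEndo-like cells with *Hspa1a*, against 5.58% and 2.86% of those without. The *Ets1* eKO libraries held at most 10 cells with *Hspa1a* in these draws, and no share is given for them. *Fos* was found in 35.7% (control 1) and 6.67% (control 2) of mEndo-like cells with *Hspa1a*, and in 32.3% and 27.0% of those without, with 70 and 15 cells behind the first pair. In control cardiomyocyte-like cells *Fos* was in 40.5% and 58.8% of cells with *Hspa1a* (74 and 17 cells) and in 16.2% and 13.9% of those without, and in control fibroblast-like cells in 87.2% and 72.2% (39 and 36 cells) against 74.8% and 67.8%. Cells of a library are not replicates, and these shares are descriptions.

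Other genes of both responses came from lists of known members. Of 33 other immediate early genes, 30 passed the filter in mEndo-like cells. EdgeR called 6 of them lower, beside 1.59% of all genes tested, and none higher. Among the 6 were *Btg2*, an antiproliferative gene, *Zfp36*, which destabilises inflammatory mRNAs, and the transcription factors *Atf3* and *Nr4a1*. The others were the MAP kinase phosphatase *Dusp1* and the matrix protein gene *Ccn1*. All 6 were named after their values were seen, because they passed the test. *Btg2* measured 207 and 151 CPM in control mEndo-like cells and 77.7 and 79.0 in *Ets1* eKO (-1.14 ± 0.15, adjusted p = 0.00314, edgeR). *Zfp36* measured 29.7 and 18.9 against 9.09 and 9.56 CPM (-1.33 ± 0.23, adjusted p = 0.0118, edgeR). In vEndo-like cells 3 of 27 that passed the filter fell, beside 0.148% of all genes: *Btg2* (-1.18), *Zfp36* (-1.75) and *Socs3*, an inhibitor of cytokine signalling, from 125 and 85.6 to 27.3 and 31.6 CPM (-1.81 ± 0.24, adjusted p = 0.00322, edgeR). In epicardial-like cells, where 0.05% of all genes fell, *Nr4a3* fell from 55.2 and 48.2 to 20.2 and 13.6 CPM (-1.50 ± 0.27, adjusted p = 0.0487, edgeR), and no gene of the list was called by edgeR in the other 4 classes, where DESeq2 called 0 to 6 and 7 to 10 had an edgeR p under 0.05 before adjustment. The latter were 10 of 31 in cardiomyocyte-like cells (1673 of 16545 of all genes) and 7 of 31 in cvEC-like cells (1367 of 11337). They were 10 of 31 in fibroblast-like (1716 of 14755) and 8 of 30 in immune-like cells (414 of 8930). DESeq2 called 2, 1, 6 and 0 of the list in these classes, beside 33, 65, 144 and 5 of all genes. The median log2 change of the list was below 0 in all 7 classes, from -0.40 in vEndo-like and -0.35 in mEndo-like to -0.09 in cardiomyocyte-like and epicardial-like cells. Of the 27 to 31 genes that passed the filter, both *Ets1* eKO libraries lay below both controls for 13 to 18 by class and above for 0 to 2. The count below was 15 of 31 in cardiomyocyte-like (36.8% of all genes tested), 17 of 31 in cvEC-like (31.3%), 16 of 30 in mEndo-like (33.1%) and 16 of 27 in vEndo-like cells (23.9%). It was 18 of 31 in fibroblast-like (33.6%), 13 of 28 in epicardial-like (25.2%) and 18 of 30 in immune-like cells (18.0%). Over all classes edgeR called 10 of 208 values and DESeq2 16. In the same order of classes, edgeR called 0, 93, 389, 38, 3, 6 and 7 of all genes in either direction. DESeq2 called 33, 65, 371, 22, 144, 0 and 5 of them. The calls of *Btg2* in both endocardial classes, of *Zfp36* in mEndo-like and of *Socs3* in vEndo-like cells held under all 10 alternatives. The other 6 calls were lost under at least 1 alternative. *Zfp36* in vEndo-like cells lost its call without control 1 (adjusted p = 0.106, edgeR) and with the stricter cell filter (0.0639). *Atf3* lost it without control 1 (adjusted p = 0.0843, edgeR), with the replicate number as a block (0.063) and by DESeq2 (0.0529). *Ccn1* lost it without control 1 (adjusted p = 0.211, edgeR), with the block (0.0802), with cells past 2 gates given to the higher score (0.118) and by DESeq2 (0.117). *Nr4a1* lost it without control 1, control 2 or *Ets1* eKO 2 (adjusted p = 0.0516, 0.0598 and 0.0756, edgeR), with the block (0.0689) and by DESeq2 (0.117). *Dusp1* lost it with cells past 2 gates included (adjusted p = 0.0849, edgeR). *Nr4a3* lost it without *Ets1* eKO 1 or 2 (adjusted p = 0.155 and 0.137, edgeR), with cells past 2 gates included (0.0957) and by DESeq2 (0.756).

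By the mean CPM over the 28 sums of 4 libraries and 7 classes, the highest members of that list were *Jund*, *Klf2* and *Atf3*, though others were higher in single classes. *Jund*, a constitutively expressed AP-1 subunit, measured 503 and 446 CPM in control mEndo-like cells and 323 and 381 in *Ets1* eKO (-0.37 ± 0.14), and 281 and 259 against 291 and 333 CPM in cardiomyocyte-like cells (0.32 ± 0.15). *Klf2*, a shear-responsive endothelial transcription factor, measured 592 and 465 against 379 and 431 CPM in mEndo-like cells (-0.32 ± 0.15). Neither passed the test in mEndo-like cells (adjusted p = 0.177 and 0.265, edgeR). *Atf3* measured 53.9 and 50.3 against 30.8 and 32.8 CPM there (-0.65 ± 0.14, adjusted p = 0.031, edgeR) and 64.4 and 62.4 against 53.7 and 72.3 CPM in cvEC-like cells (0.08 ± 0.17).

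Of 30 other heat shock genes, 29 passed the filter in mEndo-like cells, 2 fell (*Bag3*, a co-chaperone of Hsp70, and *Hspa12a*, a distant Hsp70 relative), beside 1.59% of all genes, and none rose. *Bag3* measured 53.0 and 45.1 CPM in controls and 27.7 and 29.1 in *Ets1* eKO (-0.73 ± 0.14, adjusted p = 0.0251, edgeR). In each of the other classes both *Ets1* eKO libraries also lay below both controls for *Bag3*. Its log2 change there was -0.55 (vEndo-like) to -0.27 (fibroblast-like) and did not pass the test. *Bag3* lost its call without control 1 (adjusted p = 0.0891, edgeR), with the replicate number as a block (0.0526) and with cells past 2 gates included (0.0591). *Hspa12a* lost it without control 2 or *Ets1* eKO 2 (adjusted p = 0.115 and 0.0504, edgeR), with the block (0.0734), with cells past 2 gates included (0.095) and by DESeq2 (0.155). In the other 6 classes neither edgeR nor DESeq2 called a gene of this list, and 0 to 6 had an unadjusted p under 0.05. By class they were 2 of 30 in cardiomyocyte-like (1673 of 16545 of all genes) and 6 of 28 in cvEC-like cells (1367 of 11337). In vEndo-like cells 6 of 27 had one (1026 of 10122), and in fibroblast-like cells 4 of 30 (1716 of 14755). It was 0 of 27 in epicardial-like (669 of 10003) and 1 of 26 in immune-like cells (414 of 8930). The median log2 change of the list was above 0 in all 7 classes, from 0.01 in epicardial-like to 0.21 in fibroblast-like and immune-like cells. The highest 3 by the same mean were the Hsp90 chaperones, though not in every class. In mEndo-like cells *Hsp90ab1* measured 3139.7 and 3255 against 3307 and 3822 CPM (0.21 ± 0.16), *Hsp90aa1* 435 and 436 against 398 and 513 CPM (0.12 ± 0.16) and *Hsp90b1*, the form of the endoplasmic reticulum, 654 and 648 against 765 and 870.1 CPM (0.39 ± 0.14), and none passed the test (adjusted p = 0.494, 0.694 and 0.163, edgeR).

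Regulators above both responses were also listed. None of 13 was called in any class by edgeR or DESeq2, and 11 of 87 values had an unadjusted p under 0.05. These were 3 of 13 in mEndo-like cells, beside 2658 of 12936 of all genes tested. In cardiomyocyte-like and fibroblast-like cells 2 of 13 had one (1673 of 16545 and 1716 of 14755 of all genes). It was 2 of 12 in vEndo-like (1026 of 10122), 2 of 11 in immune-like (414 of 8930) and none in cvEC-like or epicardial-like cells. Both *Ets1* eKO libraries lay below both controls for 12 of 13 in mEndo-like cells (33.1% of all genes), 9 of 13 in cardiomyocyte-like (36.8%), 6 of 13 in cvEC-like (31.3%) and 6 of 12 in vEndo-like cells (23.9%). It was 7 of 13 in fibroblast-like (33.6%), 3 of 12 in epicardial-like (25.2%) and 4 of 11 in immune-like cells (18.0%), and none lay above. In mEndo-like cells *Elk3*, a partner of serum response factor, measured 354 and 394 CPM in controls and 310.5 and 247 in *Ets1* eKO (-0.37 ± 0.15) and *Mapk3*, a MAP kinase, 133 and 134 against 112 and 122 CPM (-0.14 ± 0.12). The median log2 change of the 13 was -0.28 in mEndo-like cells and -0.24 to -0.10 in the others. Among 7 genes that follow library quality none was called by edgeR or DESeq2, and 11 of 49 values had an unadjusted p under 0.05. These were 3 of 7 in cvEC-like (1367 of 11337 of all genes) and 3 of 7 in immune-like cells (414 of 8930). In each of the other classes it was 1 of 7. *Malat1*, a nuclear RNA, measured 11438 and 9758 CPM in control mEndo-like cells and 14423 and 9566 in *Ets1* eKO (0.23 ± 0.21), *Gm42418*, which carries ribosomal RNA sequence, measured 4833 and 5412 against 4673 and 4249 CPM (-0.14 ± 0.17) and *Cmss1* 574 and 939.5 against 589.9 and 341 CPM (-0.65 ± 0.27).

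To see which genes move most like the members over the libraries, the mean of each class was removed from log2(CPM + 1) and every gene with a mean of at least 20 CPM in each class (4156 genes) was correlated with the mean of the members over the 28 sums of 4 libraries and 7 classes. These sums share libraries, and the correlations are descriptions. Among the genes closest to the immediate early genes were *Btg2* (Pearson's r = 0.95), *Ost4*, a subunit of oligosaccharyltransferase (0.87), the ubiquitin ligase *Peli1* (0.87) and *Ptbp3*, an RNA-binding protein (0.85). *Btg2* was below both controls in both *Ets1* eKO libraries in all 7 classes. Each immediate early gene followed the mean of its other 4 with an r of 0.86 (*Fosb* and *Junb*) to 0.95 (*Fos*). Both families were chosen by the fall of some members in these same libraries. Part of this agreement is therefore built in, and nothing is concluded from it. For the heat shock genes the closest were *Gnas*, a stimulatory G protein subunit (0.83), *Btg2* (0.80), *Atp6v1a*, of the vacuolar proton pump (0.78), and the mitochondrial transcripts *mt-Co2* (0.78) and *mt-Atp6* (0.78). *Dnajb1* (0.56), *Hspa8* (0.39) and *Hsph1* (0.37) had lower r values with the mean of the other heat shock genes. No such value is given for *Hspa1a* or *Hspa1b*, whose mean of the others would hold the other copy.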

How the data were processed

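The authors made UMI counts per gene and barcode with Cell Ranger 7.1.0 on mm10 and deposited them as whole counts for called cells. Labels group the 4 libraries by genotype. Cells were kept with 200 to 7000 genes, at least 1000 UMIs and at most 20% mitochondrial, 35% ribosomal and 2% hemoglobin counts. Each cell got a mean marker score from 0 to 1, with cuts at 0.5 for cardiomyocytes, 0.3 for other classes and 0.25 for cvEC and vEndo. Cells past the gates of 2 classes, likely doublets, were left out, and no doublet caller or background removal was run. The sum of counts over the cells of each class in each library went into edgeR 4.0.16 (R 4.3.3; quasi-likelihood, TMM, filterByExpr), with Benjamini-Hochberg adjustment over all genes at 0.05. CPM are counts per 1000000 UMIs of the class in a library. Tables and plots were made with pandas 2.3.3, matplotlib 3.10.9, scipy 1.17.1 and numpy 2.4.6 under Python 3.11.15, and the fits were tested on simulated data. Alternatives included DESeq2 1.42.0. The members and lists were chosen with earlier results of these data known. Named genes were the members, the 3 highest of each list, the 5 genes most like each group and *Ets1*, and list genes past the threshold were added after their values were seen. Some genes that this rule names are not reported here. Of the 32285 gene IDs, 32158 are in GENCODE vM21.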

Additional observations from a re-analysis of the deposited data

Results flagged for a closer look

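*Hspa8* was the single member with groups that separated in opposite directions in different classes. Its log2 change in *Ets1* eKO was 0.06 ± 0.18 in immune-like cells, where each *Ets1* eKO library exceeded each control (1538 and 1567 against 1522 and 1514 CPM). It was -0.28 ± 0.17 in vEndo-like cells, where both lay below (883 and 1013 against 1194 and 1167 CPM), as did 23.9% of all genes tested. The share of all genes that lay above in immune-like cells was not counted. EdgeR called *Hspa8* in neither class. The difference between the classes was not tested.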

How the results depend on the processing

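The sign of a log2 change differed from the reported one in 6 of 350 alternative values for the immediate early genes, all with control 1 or *Ets1* eKO 2 left out, and in 30 of 310 for the heat shock genes. Total count scaling moved the median change of all genes in cardiomyocyte-like cells from 0.0142 to -0.096 and those of the other classes to between -0.0829 and -0.0177.

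Counts of called genes depended on the fit, and the cause was not tested. For cardiomyocyte-like cells (0 genes), DESeq2 gave 33, total count scaling 1, no filter 1 and libraries left out 0 to 1664. For cvEC-like cells (93), total count scaling gave 142, no filter 324, cells past 2 gates given to the higher score 54, and libraries left out 137 to 1018. A group left with 1 library was assumed to vary like the others. For mEndo-like cells (389), no filter gave 1105, cells past 2 gates 169, and libraries left out 371 to 1791. For vEndo-like cells (38), DESeq2 gave 22, no filter 237, the stricter cell filter 25, and libraries left out 66 to 258. For fibroblast-like cells (3), DESeq2 gave 144, total count scaling 35, no filter 664, and libraries left out 4 to 408. For epicardial-like cells (6), DESeq2 gave 0, no filter 61, cells past 2 gates 0, and libraries left out 0 to 72. For immune-like cells (7), total count scaling gave 4, no filter 52, the stricter cell filter 12, and libraries left out 15 to 59.

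With the replicate number as a block, the counts in the same order were 200, 244, 229, 69, 33, 19 and 4. The libraries share only a number. A check for pairing by that number, over 6096 to 7088 genes by class, gave correlations of -0.32 to -0.02. With the numbers crossed, an alternative added after seeing the data, the counts were 190 (cardiomyocyte-like), 103 (cvEC-like), 1526 (mEndo-like) and 181 (fibroblast-like). The block moved no median change of the members by more than the spread between replicates.

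With libraries left out, the median change of the heat shock genes ran from -0.48 to -0.08 in cardiomyocyte-like, -0.43 to 0.15 in cvEC-like, -0.39 to 0.02 in fibroblast-like and -0.39 to -0.11 in vEndo-like cells, and total count scaling gave -0.35 in cardiomyocyte-like cells. That of the immediate early genes ran from -0.47 to -0.04 in epicardial-like, -0.66 to -0.25 in fibroblast-like, -1.04 to -0.70 in mEndo-like and -1.18 to -0.57 in vEndo-like cells.

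Levels against cardiomyocyte-like cells turned their direction for 7 pairs of gene and class. *Egr1* in mEndo-like cells was -0.02 without a filter, -0.01 with cells past 2 gates and -0.05 to 0.15 with libraries left out. *Hspa1a* in epicardial-like cells was -0.75 in controls alone and -0.14 to 0.88 with libraries left out. *Hspa1b* in epicardial-like cells was -0.09 without a filter, -1.37 in controls alone, -0.07 with cells past 2 gates and -0.57 to 0.99 with libraries left out, and in fibroblast-like cells -0.03 in controls alone. *Hsph1* in immune-like cells was -0.03 without a filter, -0.03 in controls alone and -0.18 to 0.19 with libraries left out. Total count scaling gave *Hspa8* 0.06 in mEndo-like and 0.15 in vEndo-like cells. The 2 libraries per group and the counts of 92 to 298 cells in the immune-like class limit what can be detected there.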
